A study of Mus musculus with 13 samples.

Results

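Androgen-binding proteins are secretoglobins, small secreted proteins that mice release in saliva. Scgb1b27, Scgb2b27 and Scgb2b26 were the genes described here. They were the rows with those gene names in the deposited normalised table, 3 of its 17956 genes, and were followed in all 13 libraries. The same table held 19 other secretoglobin genes.

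An androgen-binding protein is a dimer in which an alpha subunit, the product of an Scgb1b gene, is joined by disulphide bonds to a beta or gamma subunit, the product of an Scgb2b gene. Scgb1b27 encodes the alpha subunit of the salivary protein, and Scgb2b27 and Scgb2b26 encode its partners. The proteins bind steroid hormones, are spread over the coat with saliva during grooming and have been studied as cues in mate choice between house mouse subspecies. The genes belong to a large rodent gene cluster that grew by repeated duplication, in which alpha and partner genes often lie head to head.

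The submandibular gland, a salivary gland, was profiled by RNA sequencing in mice at 1 year of age, day 300 after treatment, with the strain given as CH3. The 5 IR_GFP libraries came from irradiated glands that had received AAV2-GFP, an adeno-associated virus vector carrying green fluorescent protein, 10 days before irradiation. The 5 IR_NTN libraries came from irradiated glands that had received Cere-120, which is AAV2-NRTN and carries the neuronal growth factor neurturin, also 10 days before irradiation. The 3 NonIR libraries came from glands that were not irradiated. The sources used here do not say whether these carried a vector, so irradiation and vector cannot be told apart in either comparison with NonIR. Nothing in the labels says that replicates came from separate animals, and p-values measure the spread between these libraries, which may be technical.

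Libraries held between 9724304 and 16771004 reads, and the rows for the green fluorescent protein and vector sequences held 0 reads in all 13, which allows up to 3 reads in each. Of the marker lists for the gland, all 8 acinar, all 6 granular tubule and all 10 duct genes passed the filter on low counts. The 4 muscle genes stood out in IR_GFP replicate 2, with Acta1 at 80.9, Ckm at 43.9 and Myh4 at 27.4 CPM. They summed to 160 CPM there and to as little as 2.68 CPM in another IR_GFP library. In NonIR the sum was 2.26 to 3.46 CPM and in IR_NTN 2.38 to 3.58 CPM. The airway marker Scgb1a1, also a secretoglobin, had 0 reads in every library.

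All 3 genes lie on chromosome 7 of GRCm38 in the GENCODE M21 annotation. Scgb1b27 spans 34021483 to 34022881 on the plus strand, Scgb2b27 spans 34011921 to 34013942 on the minus strand, and Scgb2b26 spans 33943002 to 33945040 on the minus strand. The starts of the principal transcripts of Scgb1b27 and Scgb2b27 are 7607 bases apart and point away from each other. Each principal transcript has 3 exons, and each is short, with 493 nt for Scgb1b27, 512 nt for Scgb2b27 and 579 nt for Scgb2b26. The coding sequences are printed from the start codon, whole for Scgb1b27 and for 300 bases in the Scgb2b genes, because the shortness of these messages and the unequal likeness of the copies bear on the measurements below. They come from the GENCODE M21 transcripts. Without the stop codon, the full coding sequence holds 92 codons in Scgb1b27 and 112 in each Scgb2b gene. Capitals mark the start codon in Scgb1b27 and, in the Scgb2b genes, the bases that differ between them in their alignment.
Scgb1b27: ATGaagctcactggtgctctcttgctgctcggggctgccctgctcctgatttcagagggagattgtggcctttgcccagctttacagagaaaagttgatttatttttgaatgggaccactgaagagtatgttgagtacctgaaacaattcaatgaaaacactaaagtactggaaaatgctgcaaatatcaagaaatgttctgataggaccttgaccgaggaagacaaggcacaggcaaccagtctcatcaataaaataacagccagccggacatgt
Scgb2b27: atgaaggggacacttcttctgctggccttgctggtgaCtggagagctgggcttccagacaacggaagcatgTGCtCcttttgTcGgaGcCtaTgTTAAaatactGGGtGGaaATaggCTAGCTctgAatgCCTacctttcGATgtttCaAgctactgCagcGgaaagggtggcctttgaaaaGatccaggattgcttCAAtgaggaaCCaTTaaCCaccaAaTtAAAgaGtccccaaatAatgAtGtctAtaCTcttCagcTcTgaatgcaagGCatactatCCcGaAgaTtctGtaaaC
Scgb2b26: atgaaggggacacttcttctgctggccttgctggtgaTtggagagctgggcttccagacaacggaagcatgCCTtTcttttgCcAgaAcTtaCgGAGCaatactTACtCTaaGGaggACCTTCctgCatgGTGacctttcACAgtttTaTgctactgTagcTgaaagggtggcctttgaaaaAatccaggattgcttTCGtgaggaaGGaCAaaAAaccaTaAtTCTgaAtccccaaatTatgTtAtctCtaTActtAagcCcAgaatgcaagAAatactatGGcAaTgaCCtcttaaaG

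Scgb2b27 and Scgb2b26 were identical at 73.8% of the aligned positions of their coding sequences. The likeness was uneven, since without gaps they differed at 1 of the first 60 bases and at 92 of all 336. Scgb1b27 was identical to Scgb2b27 at 49.3% of aligned positions and to Scgb2b26 at 50.7%. No stretch of 75 bases from any of the 3 principal transcripts occurred in a transcript of another gene, on either strand. Of the stretches of 50 bases, 6.48% from Scgb2b27 also occurred in transcripts of Scgb2b12, Scgb2b19, Scgb2b2 or Scgb2b23-ps, 1.7% from Scgb2b26 in Scgb2b2, and 0 from Scgb1b27 in any. Reads were assigned by the authors, and the sources used here do not say how shared reads were treated.

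The promoter windows in RefSeq, 300 bases around each annotated start on GRCm38.p6, matched all 3 genes by symbol. TATAAA, the core of a TATA box, was searched on both strands and occurred in all 3 windows, as in 22 of 29 windows of Scgb1b and Scgb2b genes and in 13.6% of all 32851 windows. The match began 43 bases after the annotated start in Scgb1b27, on the gene's strand. On the opposite strand it began 27 bases after the start in Scgb2b27 and 29 bases before it in Scgb2b26. The 3 matches thus do not share a distance from the RefSeq start, which can differ from the principal start used above. For example, the Scgb2b27 window, 34013893 to 34014192, does not reach the principal start of that gene at 34013876. A shared distance from another point, such as the start codon, was not tested. The windows of Scgb2b27 and Scgb2b26 were identical at 83.7% of 246 locally aligned positions. Whether their 2 matches face each other in that alignment was not tested. AGAACA, the half-site of the androgen and glucocorticoid receptors, occurred in none of the 3, against 19 of the 29 and 19% of all windows.

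The members were among the most abundant messages of the gland in every group, and each differed between groups by less than its spread within the irradiated groups. All levels are given in CPM, read counts relative to library size, with library sizes scaled by the trimmed mean of M-values (TMM). Together the 3 genes took from 2.18% of reads in IR_NTN replicate 2 to 14.2% in IR_GFP replicate 3, with a median of 4.81% over the 13 libraries. The exact 95% binomial intervals of these shares, 2.18% to 2.19% and 14.1% to 14.2%, cover counting error only and are far narrower than the differences between libraries. PCR copies were counted without molecular identifiers, so reads do not count molecules independently.

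Scgb1b27, the alpha subunit, measured 9104, 14842 and 21617 CPM in NonIR replicates 1 to 3. In IR_GFP replicates 1 to 5 it measured 6271, 18587.5, 96679, 37105 and 9498 CPM, and in IR_NTN replicates 1 to 5 it measured 66273, 8437, 14918, 21437 and 70066 CPM. The lowest libraries of both irradiated groups lay below all NonIR libraries and the highest lay far above them, so that the groups overlapped in all 3 comparisons. Mean levels were 15188 ± 6264 CPM in NonIR (SD, n = 3), 33628 ± 37230.5 in IR_GFP (SD, n = 5) and 36226 ± 29551 in IR_NTN (SD, n = 5).

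Scgb2b27, a partner subunit, measured 9239.9, 19607 and 25596 CPM in NonIR replicates 1 to 3. It measured 7002, 23597, 64716, 41412 and 9336 CPM in IR_GFP replicates 1 to 5, and 57314, 8043, 16236, 28731 and 46669 CPM in IR_NTN replicates 1 to 5. The libraries that were high and low for the alpha subunit were high and low here too, and all groups overlapped. The means were 18148 ± 8275 CPM in NonIR (SD, n = 3), 29213 ± 24131 in IR_GFP (SD, n = 5) and 31399 ± 20538 in IR_NTN (SD, n = 5).

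Scgb2b26, the other partner, was the least abundant member in every library. It measured 2624.5, 6732 and 8659 CPM in NonIR replicates 1 to 3, then 2176, 6643, 23353, 13671.5 and 2322 CPM in IR_GFP replicates 1 to 5. In IR_NTN replicates 1 to 5 it measured 17041, 2015, 5303, 9308 and 15243 CPM. Its groups overlapped in the same way, with means of 6005 ± 3082 CPM in NonIR (SD, n = 3), 9633 ± 8979.9 in IR_GFP (SD, n = 5) and 9782 ± 6386 in IR_NTN (SD, n = 5).

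**Figure D1:**
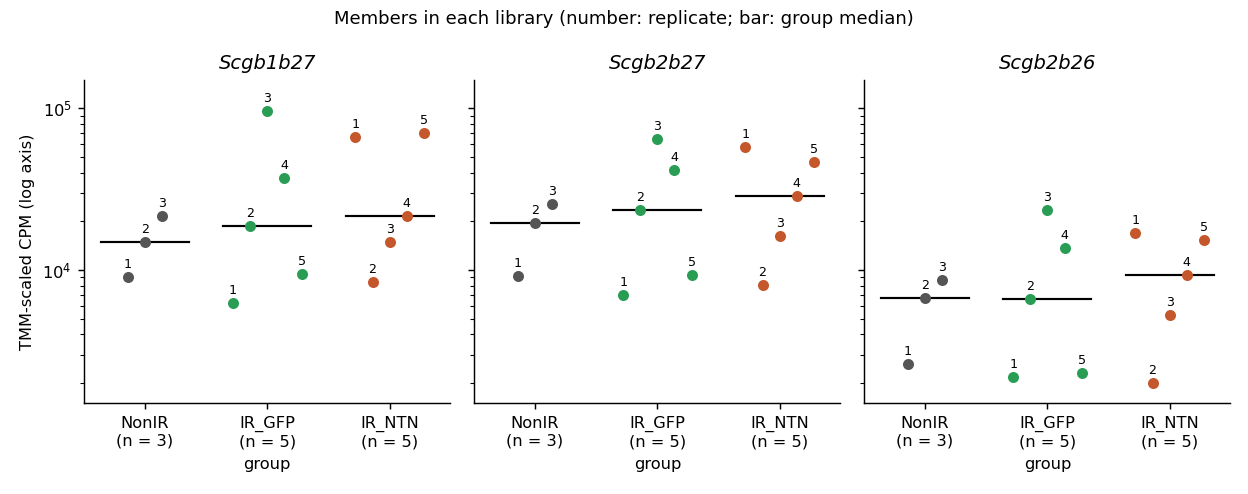
Level of each member in each library, in TMM-scaled CPM on a log axis, by group; each point is a library numbered by its replicate and each bar is the group median. In each panel IR_GFP replicate 3 is the highest point, and the NonIR points lie within the range of both irradiated groups, from 9104 to 21617 CPM for Scgb1b27.

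Per kilobase of principal transcript, the scale on which genes can be compared, Scgb1b27 averaged 30807 ± 12705 CPM per kb in NonIR, Scgb2b27 35445 ± 16163 and Scgb2b26 10371.5 ± 5323 (SD, n = 3 each). On that scale Scgb1b27 ranked between 2 and 6 among the 14689 tested genes with a transcript length, depending on the library, Scgb2b27 between 3 and 6, and Scgb2b26 between 6 and 13. The alpha subunit stood at 0.70 ± 0.11 of its summed partners per kilobase in NonIR (SD, n = 3), at 0.83 ± 0.21 in IR_GFP (SD, n = 5) and at 0.88 ± 0.23 in IR_NTN (SD, n = 5). These ranges overlapped. The ratio passed 1 in IR_GFP replicate 3, at 1.18, and in IR_NTN replicate 5, at 1.21. Scgb2b27 exceeded Scgb2b26 per kilobase by 3.54 ± 0.38 times in NonIR, 3.75 ± 0.55 times in IR_GFP and 3.75 ± 0.45 times in IR_NTN, so the mix of partners differed between groups by less than the spread within them.

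The members varied together from library to library. Over the 13 libraries Scgb2b27 and Scgb2b26 had Pearson's r = 0.99 and Spearman's rho = 0.98 in log2 CPM. Scgb1b27 had r = 0.97 and rho = 0.98 with Scgb2b27, and r = 0.96 and rho = 0.96 with Scgb2b26. Each of these 6 coefficients had a permutation p of 1e-05, the smallest that 100000 resamples can give, and 1e-05 after Benjamini-Hochberg adjustment over the 3 pairs. Without the 2 libraries farthest from the median the r values were 0.99, 0.98 and 0.96 in the same order, and for deviations from the group means they were 0.99, 0.97 and 0.96, so the relation was not one between groups.

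The first comparison asked whether irradiated glands with the GFP vector differed from glands that were not irradiated. In log2 fold change, edgeR's quasi-likelihood test gave 1.15 for Scgb1b27 (SE 0.96, adjusted p = 0.795), 0.69 for Scgb2b27 (SE 0.80, adjusted p = 0.86) and 0.68 for Scgb2b26 (SE 0.88, adjusted p = 0.878). None of the 3 passed the threshold of 0.05, and none had an unadjusted p below it. Over all genes 5 of 14727 passed, 0.034%, and the groups of 5.14% of genes did not overlap. The means of log2 CPM differed by only 0.55, 0.34 and 0.26 in the same order, with exact two-sided permutation p = 0.643, 0.75 and 0.893. The smallest p that this two-sided test can give for 5 libraries against 3 is 0.0357. The fitted fold changes compare mean levels and moved with IR_GFP replicate 3, without which they were 0.23, 0.16 and 0.05.

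The second comparison asked whether neurturin changed the members in irradiated glands. The log2 fold changes of IR_NTN over IR_GFP were 0.11 for Scgb1b27 (SE 0.80, adjusted p = 0.998), 0.10 for Scgb2b27 (SE 0.68, adjusted p = 0.998) and 0.02 for Scgb2b26 (SE 0.74, adjusted p = 1.00) by edgeR. None of the members passed, also at an unadjusted p of 0.05, and 3 of 14727 genes did, 0.0204%. The groups did not overlap in 1.11% of genes. Exact two-sided permutation p-values were 0.722, 0.746 and 0.802. The sign of all 3 turned when 1 of several libraries was left out, IR_GFP replicates 1 or 5 or IR_NTN replicates 1 or 5, with values down to -0.28. Without IR_GFP replicate 3 the values were 1.02, 0.63 and 0.66.

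The third comparison set irradiated glands with neurturin against glands that were not irradiated and used the same NonIR libraries as the first. The log2 fold changes were 1.25 for Scgb1b27 (SE 0.97, adjusted p = 0.798), 0.79 for Scgb2b27 (SE 0.80, adjusted p = 0.857) and 0.70 for Scgb2b26 (SE 0.88, adjusted p = 0.887) by edgeR. Again 0 of 3 passed, adjusted or not, against 3 of 14727 genes, 0.0204%, and the groups of 6.52% of genes did not overlap. The exact two-sided permutation p-values were 0.464, 0.536 and 0.536. DESeq2 and limma-voom also called 0 of 3 members in every comparison. After adjustment over the 9 member comparisons all of the exact p-values were 0.893.

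Over the 13 libraries the SD of log2 CPM was 1.27 for Scgb1b27, 1.11 for Scgb2b27 and 1.22 for Scgb2b26, against a median of 0.33 over all genes tested and of 0.93 over tested protein-coding genes of 400 to 700 nt. A share of 98.9%, 98.1% and 98.7% of tested genes varied less than each of them. The highest library exceeded the lowest 15.4-fold for Scgb1b27, 9.24-fold for Scgb2b27 and 11.6-fold for Scgb2b26.

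Among 12985 genes with a mean of at least 1 CPM, the 10 with the highest Pearson r with the mean of the scaled members were Cox7a2, Smim11, Cox8a, Cox5b, Uqcrh, Nop10, Rpl28, Ndufa7, Gm15772 and Atp5j2, with r between 0.988 and 0.992 over 13 libraries. Cox7a2, Cox8a and Cox5b encode subunits of cytochrome c oxidase, Uqcrh and Ndufa7 subunits of respiratory complexes III and I, Atp5j2 a subunit of ATP synthase and Rpl28 a ribosomal protein. Cox7a2, for example, ranged from 56.8 to 417 CPM, with 135 ± 48.9 in NonIR (SD, n = 3), 189 ± 149 in IR_GFP (SD, n = 5) and 214 ± 134 in IR_NTN (SD, n = 5). None of the 10 passed the threshold in any comparison.

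Genes like the members in pattern were mostly short. Of the protein-coding genes compared, the 430 with r over 0.9 had a median transcript length of 896 nt, against 3021 nt for all 11627. Among genes of 400 to 700 nt, the range that holds the members, 60.3% of 204 had r over 0.9, with a median r of 0.92. Among genes longer than 3000 nt the share was 1.01% of 5866 and the median r was -0.18.

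The short messages as a class moved between libraries. The median log2 deviation of the 221 tested protein-coding genes of 400 to 700 nt, secretoglobins left out, from each gene's own mean ran from -1.20 in IR_GFP replicate 1 to 1.07 in IR_NTN replicate 5. It was -1.13 in IR_NTN replicate 2, -1.04 in IR_GFP replicate 5 and -0.82 in NonIR replicate 1, and 0.98 in IR_GFP replicate 3 and 0.87 in IR_NTN replicate 1. These are the libraries in which the members were low and high. The group means of this deviation were -0.16 ± 0.60 in NonIR (SD, n = 3), -0.10 ± 0.98 in IR_GFP (SD, n = 5) and 0.14 ± 0.90 in IR_NTN (SD, n = 5), and the groups overlapped. The median of genes over 3000 nt stayed between -0.05 and 0.12 in all 13 libraries.

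**Figure D2:**
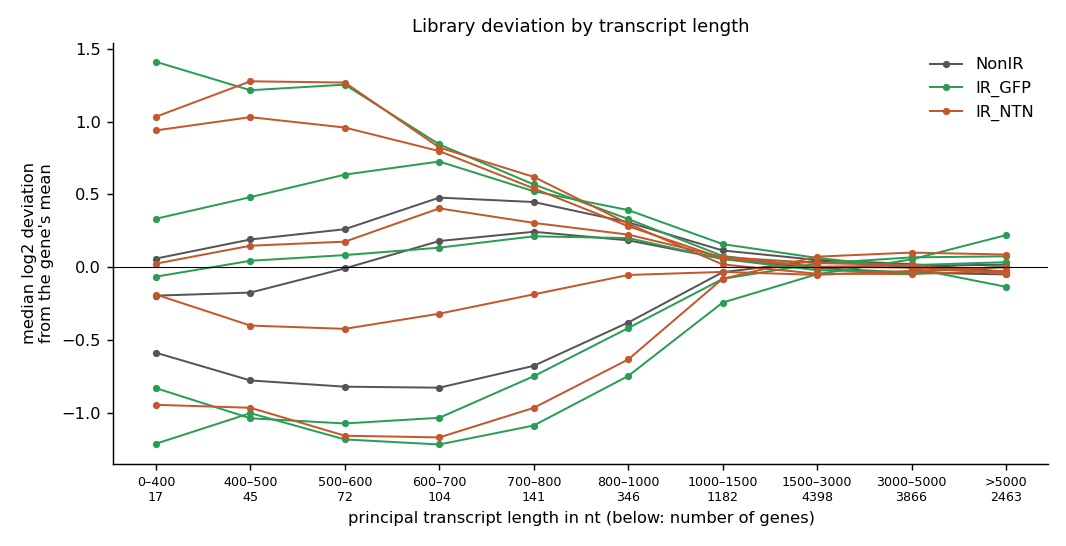
Median log2 deviation of protein-coding genes from their own mean over 13 libraries (vertical axis) by bin of principal transcript length in nt (horizontal axis, with the number of genes below), 1 line per library coloured by group, secretoglobins left out. The lines fan out below 1000 nt in libraries of all 3 groups and come together for longer genes.

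Each member followed this short-transcript level closely, a relation examined after the values were seen. Pearson's r over 13 libraries was 0.95 for Scgb1b27, 0.99 for Scgb2b27 and 0.99 for Scgb2b26, with Spearman's rho of 0.98, 0.97 and 0.97. Each had a permutation p of 1e-05, the smallest that 100000 resamples can give, also after adjustment over the 3 members. Without IR_GFP replicate 1 and IR_NTN replicate 2, the farthest from the median, r was 0.94, 0.98 and 0.98, and for deviations from group means it was 0.96, 0.99 and 0.99. 

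**Figure D3:**
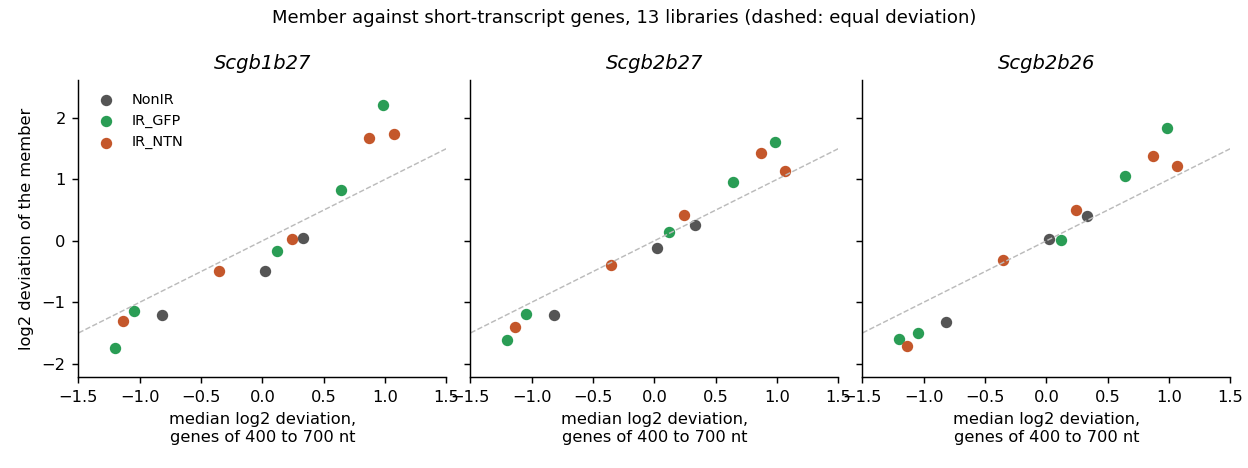
Log2 deviation of each member from its own mean (vertical axis) against the median log2 deviation of the 221 genes of 400 to 700 nt (horizontal axis) in 13 libraries coloured by group; the dashed line marks equal deviation. The points rise together in all 3 panels, with r = 0.95, 0.99 and 0.99.

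Scaled on those 221 genes in place of all genes, a choice made after the data were seen, the members varied much less. The SD over 13 libraries became 0.52 for Scgb1b27, 0.30 for Scgb2b27 and 0.40 for Scgb2b26. The median SD of protein-coding genes of 400 to 700 nt fell to 0.43, while that of all genes tested rose from 0.33 to 0.91. The log2 fold changes kept their sign and shrank to 0.60, 0.30 and 0.25 for IR_GFP over NonIR, 0.05, 0.03 and 0.00 for IR_NTN over IR_GFP and 0.66, 0.34 and 0.26 for IR_NTN over NonIR, with all adjusted p-values at 1.00 by edgeR. On this scaling the mean of log2 Scgb1b27 was 0.60 higher in IR_NTN than in NonIR, with an exact two-sided permutation p = 0.0357. That is the smallest p for 5 libraries against 3, and it became 0.321 after adjustment over the 9 member comparisons. All IR_NTN libraries lay above all NonIR libraries, at -0.19 or more against -0.30 or less in log2 deviation from the gene's mean. The share of all genes whose groups separate on this scaling is not given, so this separation cannot be set against it. With TMM over all genes that share was 6.52% for IR_NTN against NonIR. All other comparisons had exact p-values between 0.107 and 0.873 before adjustment. On this scale the r between members was 0.81 for Scgb1b27 and Scgb2b27, 0.72 for Scgb1b27 and Scgb2b26, and 0.93 for Scgb2b27 and Scgb2b26. Whether the share of short messages in a library came from the gland or from the making of the library was not tested.

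**Figure D4:**
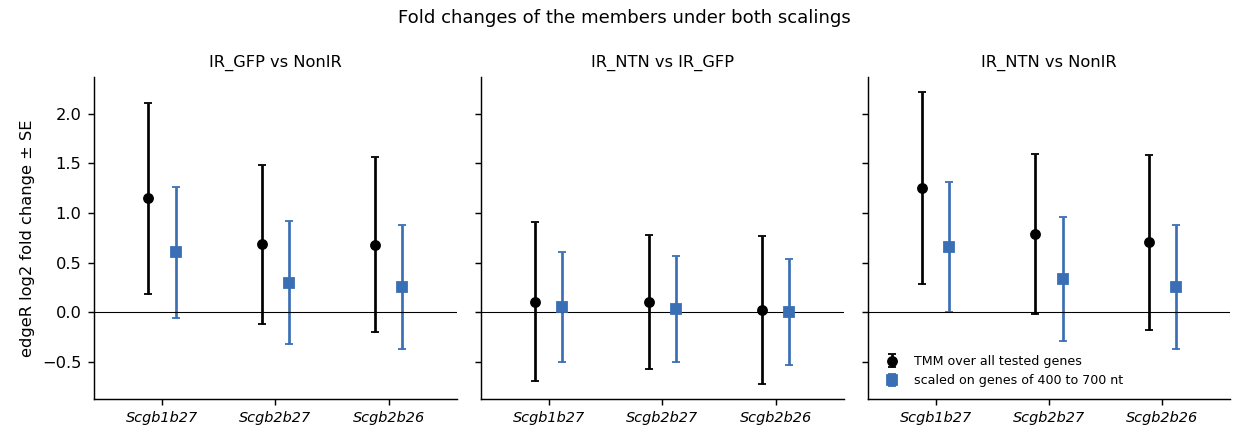
Log2 fold change of each member by edgeR, with SE as bars, in the 3 comparisons; black circles are TMM over all tested genes and blue squares are scaling on genes of 400 to 700 nt. Every blue square lies nearer to 0 than its black circle, and no value passed the threshold.

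The levels of some other secretoglobin genes followed the members across libraries and those of others did not. The count table listed 69 Scgb genes, of which 26 had 0 reads in all libraries, and the 3 members held 99.8% of all secretoglobin reads. Of the 15 others that passed the filter, 4 had r over 0.9 with the members, 10 had r under 0.5, and Scgb1b3 had r = 0.73. The followers were Scgb1b26-ps (r = 0.98), Scgb1c1 (r = 0.97), Scgb2b2 (r = 0.94) and Scgb1b30 (r = 0.92). Scaled on genes of 400 to 700 nt, the same r values were 0.90, 0.61, 0.57 and 0.57, so the likeness of the last 3 was weaker on that scale. Scgb1c1 lies outside the cluster and was the most abundant of the 15, from 11.7 CPM in IR_GFP replicate 1 to 147 CPM in IR_GFP replicate 3. Scgb2b2, which shares stretches of 50 bases with both partner genes, ranged from 0.82 to 14.7 CPM. Over all libraries Scgb1b26-ps held 502 reads, Scgb2b2 900 and Scgb1b30 205. That was 0.94, 1.69 and 0.39 reads per 10000 reads of Scgb1b27. Whether reads of the members were assigned to these genes was not tested.

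The 10 that did not follow were Scgb2b24, Scgb1b24, Scgb2b6, Scgb2b7, Scgb2b12, Scgb1b7, Scgb2b10, Scgb1b20, Scgb2b20 and Scgb2b28-ps, also androgen-binding protein subunit genes or pseudogenes of the cluster. Scgb2b24 measured 79.3, 93 and 72.6 CPM in IR_GFP replicates 1 and 2 and IR_NTN replicate 5. In the other 10 libraries it lay between 0.89 and 25.4 CPM, with 2.74, 11.6 and 6.86 CPM in NonIR replicates 1 to 3. Scgb2b7 measured 41.8, 29.6 and 48 CPM in the same 3 libraries and at most 8.52 CPM elsewhere, with 0.27, 1.1 and 0.74 CPM in NonIR. IR_GFP replicate 1, the lowest library for Scgb1b27 and Scgb2b27, was thus among the highest for these genes. Their principal transcripts are as short as the members', 523 nt for Scgb2b24 and 520 nt for Scgb2b7.

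These 3 libraries were all irradiated, 2 of 5 in IR_GFP and 1 of 5 in IR_NTN, while the other irradiated libraries overlapped with NonIR for Scgb2b24. The list of lacrimal gland genes, which holds Scgb2b24, Scgb2b20 and Scgb1b20, had 6 genes in the table, which summed to between 21.3 and 46.2 CPM in NonIR, 20.3 and 115 CPM in IR_GFP and 16.9 and 115 CPM in IR_NTN. In these 3 libraries most of that sum was Scgb2b24 itself. Scgb2b20 and Scgb1b20 were also highest in these 3 libraries, at 3.48, 2.18 and 2.22 CPM and at 2.76, 1.58 and 1.51 CPM. Esp4, another gene of the list, was lowest in IR_GFP replicate 1, at 7.32 CPM, and highest in IR_GFP replicate 3, at 40.3 CPM. Mup4, also listed, was highest in IR_NTN replicate 1, at 6.67 CPM. Obp1b, a lacrimal odorant-binding protein, had 4 reads in all 13 libraries together, all of them in IR_GFP replicate 1. IR_GFP replicate 2 was also the library in which the muscle genes stood out. The part of other glands or tissues in these levels was not tested. Scgb1b7, Scgb2b10 and Scgb2b20 had 0 reads in all 3 NonIR libraries. Of the reads of Scgb2b10, 159 of 270 in IR_GFP were in replicate 2 and 86 of 106 in IR_NTN were in replicate 5.

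By edgeR 0 of the 15 passed the threshold in any comparison. At an unadjusted p of 0.05, 4 passed for IR_GFP against NonIR and 0 in the others, where 8.78%, 6.08% and 7.97% of all genes tested had such a p in the 3 comparisons in order. DESeq2 called 1, Scgb2b10, for IR_GFP against NonIR, and limma-voom called 0. Scgb1b7, Scgb2b10 and Scgb2b20, with 0 NonIR reads, passed the filter only through irradiated libraries. So did Scgb1b20, Scgb2b6 and Scgb2b12, with no more than 4 reads in any NonIR library. The sign of their difference from NonIR was set wholly or largely by that choice. Scgb1b24, Scgb1b3, Scgb2b28-ps and Scgb2b7 also leaned on irradiated libraries to pass. In NonIR replicates 1 to 3 they had 3, 8 and 2 reads, 2, 6 and 8, 0, 11 and 2, and 4, 13 and 9 in order. Scgb1b20, Scgb2b7, Scgb2b6 and Scgb2b10 were the 4 with an unadjusted p under 0.05, so that count is no result about the 15. No median over the 15 is given.

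**Figure D5:**
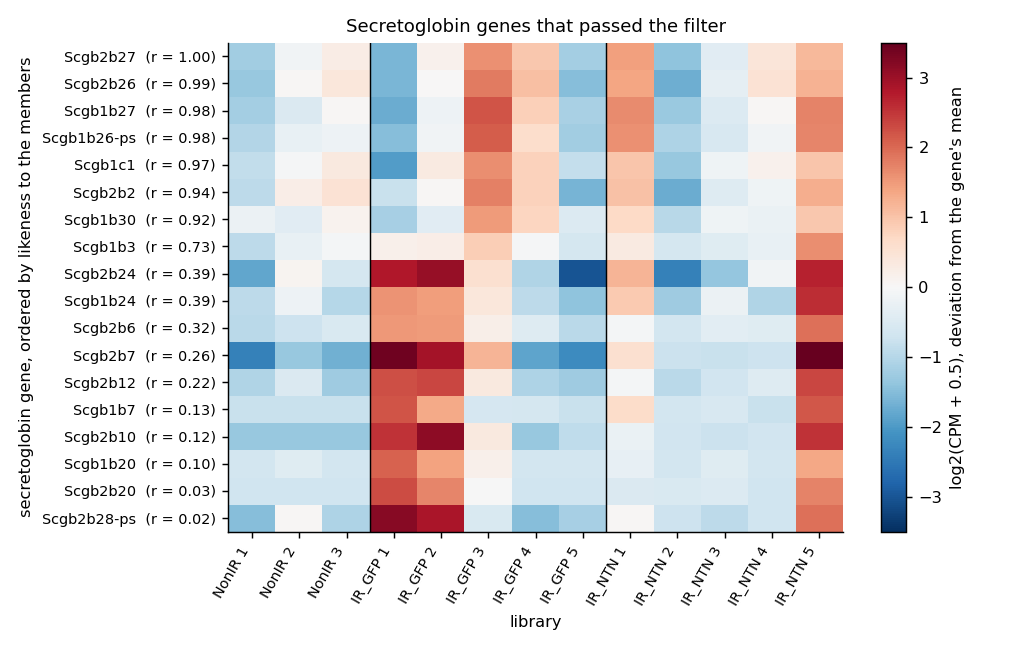
Secretoglobin genes that passed the filter (rows, ordered by r with the members) in 13 libraries (columns), coloured by the deviation of log2(CPM + 0.5) from the gene's mean. The upper rows share the members' pattern, while the lower 10 are high in IR_GFP replicates 1 and 2 and IR_NTN replicate 5.

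The 5 nearest tested genes on each side of the span of Scgb1b and Scgb2b genes, 31255891 to 34100837 on chromosome 7, gave 0 genes past the threshold in any comparison. No other tested gene lay within that span.

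The main secretory products of the gland gave few calls in the same libraries. Of 20 acinar products tested 0 passed by edgeR in any comparison, with 5, 3 and 5 of the 20 at an unadjusted p of 0.05 in the 3 comparisons in order, against 8.78%, 6.08% and 7.97% of all genes tested. DESeq2 called Amy1 alone, in both comparisons with NonIR, and limma-voom called 0. Their median log2 fold changes were 0.13, -0.02 and 0.13, beside 0.02, -0.01 and 0.00 over all genes tested. The most abundant were Mucl2, a mucin-like salivary protein, at 116260.0 ± 39708 CPM in NonIR (SD, n = 3), 117215 ± 78315 in IR_GFP (SD, n = 5) and 108310.0 ± 39352.5 in IR_NTN (SD, n = 5), and Car6, secreted carbonic anhydrase. With a transcript of 639 nt Mucl2 had r = 0.89 with the members, and Car6, with 1567 nt, had r = 0.60. Length did not set the order within the list. Pip, with 588 nt, had r = 0.94, and Aqp5, with 1797 nt, had r = 0.89. Smr2 and Smr3a, with 676 and 635 nt, had r = 0.24 and 0.27.

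Products of the granular convoluted tubule, the androgen-responsive duct segment of the mouse gland, had negative fold changes against NonIR in 16 of 19 genes in each comparison, but 0 of 19 passed by edgeR, DESeq2 or limma-voom in any comparison. At an unadjusted p of 0.05 the edgeR counts were 1, 0 and 0 of the 19, against the same shares of all genes. The median log2 fold change was -0.65 for IR_GFP against NonIR, 0.27 for IR_NTN against IR_GFP and -0.34 for IR_NTN against NonIR, beside 0.02, -0.01 and 0.00 over all genes tested. Their most abundant genes were Klk1b26, a kallikrein protease, at 20174 ± 4943 CPM in NonIR, 12615 ± 8790.5 in IR_GFP and 14828 ± 5706 in IR_NTN, and Crisp3, a cysteine-rich secretory protein. For the members the signs against NonIR were the opposite, also with 0 passing. The genes of the list were measured in the same libraries, with the same 3 NonIR libraries in both comparisons. Their signs are therefore not independent observations.

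Other carriers of chemical signals were represented by 10 tested genes of 22 listed. By edgeR, DESeq2 and limma-voom 0 passed, with 4, 3 and 0 of the 10 at an unadjusted p of 0.05 by edgeR, against 8.78%, 6.08% and 7.97% of all genes tested. Their median log2 fold changes were 0.88, -0.19 and 0.64, beside 0.02, -0.01 and 0.00 over all genes tested. The 4 for IR_GFP against NonIR were Esp15, Esp16, Esp18 and Esp31. Their IR_GFP means lay below the SD, at 30.9 ± 55.5, 6.30 ± 11.9, 71.5 ± 106 and 6.87 ± 11.7 CPM (SD, n = 5). In NonIR Esp16 and Esp31 averaged 0.24 and 0.42 CPM, too low to pass the filter without irradiated libraries. These counts and medians are thus no result about the 10. The most abundant were Mup5, a major urinary protein, with 2818 ± 1814 CPM in NonIR, 2778 ± 1659 in IR_GFP and 2909.6 ± 1609 in IR_NTN, and Esp8, an exocrine gland-secreted peptide, with 183 ± 14 CPM in NonIR, 276 ± 108 in IR_GFP and 231 ± 62.3 in IR_NTN.

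Genes of androgen signalling, a known regulator of the granular tubule of this gland, had fold changes on both sides of 0. Of 24 listed 13 were tested, and 0 passed by edgeR, DESeq2 or limma-voom, nor at an unadjusted p of 0.05 by edgeR. Median log2 fold changes were -0.02, -0.05 and -0.04, beside 0.02, -0.01 and 0.00 over all genes tested. The 13 values ranged from -0.62 to 0.40, from -0.31 to 0.31 and from -0.40 to 0.18 in the 3 comparisons in order. The most abundant were Ncoa3, a nuclear receptor coactivator, with log2 fold changes of -0.02, -0.05 and -0.07, and Hsd17b4, a 17-beta-hydroxysteroid dehydrogenase, with -0.22, -0.02 and -0.24.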

How the data were processed

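RNA-seq of the submandibular gland was analysed in 13 libraries, 3 NonIR, 5 IR_GFP and 5 IR_NTN. Per the labels' protocols, full-length cDNA was made with SMART-Seq v4 and libraries with Nextera XT. Per the submitters' processing notes, alignment tools and packages were STAR 2.5.2a, DESeq2, edgeR and limma, with the build GRCm38.p3 (mm10). The read counting method is not given. Triplicates, other aligners and another instrument are named in the design text of the series, in conflict with these 13 libraries' labels, which were followed.

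The authors deposited raw read count values per gene, used for every test. They also deposited a normalised signal table, each library's counts times a constant, used to choose the members and in 1 alternative. Genes were kept by filterByExpr (14727), scaled by TMM and tested in all 13 libraries with edgeR 4.0.16 (quasi-likelihood, robust, R 4.3.3), two-sided, with Benjamini-Hochberg adjustment and a threshold of 0.05. Log2 CPM used a prior count of 2. Permutation tests used scipy 1.17.1 and alignments Biopython 1.88. Transcript lengths are those of 1 principal transcript per gene. Tested on simulated data over 14727 genes, the fit recovered 46.5%, 63.6% and 38.8% of 2-fold changes and 83.5%, 91% and 85.3% of 4-fold changes in IR_GFP against NonIR, IR_NTN against IR_GFP and IR_NTN against NonIR. The changed genes were picked at random, and counts were drawn independently for each gene. Scgb1b27, Scgb2b27 and Scgb2b26 had fitted coefficients of variation of 0.83, 0.72 and 0.78, against a median of 0.22 over all genes tested. The rates therefore do not apply to the members.

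The members, lists and tests were chosen with earlier results of these data known. Named genes were the members, the other secretoglobins that passed the filter, the 10 genes with the highest r with the members, cluster neighbours past the threshold, and of other lists the genes past the threshold or else the 2 most abundant. Replicate numbers were not used to pair libraries, since the labels do not say that they pair them. Of 11 same-numbered pairs 3 had a correlation of deviations over 0.1. This cannot decide about pairing, because pairs with different numbers were not compared. Alternatives covered scaling, the filter, the tool, the samples fitted, a replicate block and each library left out.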

Additional observations from a re-analysis of the deposited data

How the results depend on the processing

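Each of the 9 member fold changes was recomputed under 25 alternatives, 13 of which left out 1 library. None of the 225 values passed the threshold or an unadjusted p of 0.05, and the lowest adjusted p was 0.678. The sign was the same in 211 and turned in 14, all of them for IR_NTN against IR_GFP with 1 library left out. Over the libraries left out, log2 fold changes of Scgb1b27, Scgb2b27 and Scgb2b26 ran from -0.28 to 1.02, -0.23 to 0.63 and -0.27 to 0.66 for IR_NTN against IR_GFP, from 0.23 to 1.49, 0.16 to 1.02 and 0.05 to 1.04 for IR_GFP against NonIR, and from 0.87 to 1.60, 0.46 to 1.12 and 0.37 to 1.06 for IR_NTN against NonIR. Limma-voom, which compares means of logs, gave 0.55, 0.34 and 0.26 for IR_GFP against NonIR. With a replicate block the values were 0.84, 0.49 and 0.39 for IR_GFP against NonIR, 0.38, 0.38 and 0.41 for IR_NTN against IR_GFP, and 1.22, 0.87 and 0.80 for IR_NTN against NonIR. The labels state nothing that same-numbered libraries share beyond the number, and their correlations of deviations ran from -0.428 to 0.279.

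The counts of all genes called, 5, 3 and 3 in the 3 comparisons in the order of the report, depended on the setting. They were 68, 39 and 31 with DESeq2, 0, 0 and 1 with limma-voom, 20, 10 and 4 without a filter, 0, 0 and 2 with only the groups compared, and 0, 0 and 0 with the replicate block or total reads. For IR_GFP against NonIR the count was 0 with upper-quartile factors, a non-robust fit, the deposited signal, library sizes without secretoglobin reads or scaling on genes of 400 to 700 nt, which gave 0 and 3 in the other comparisons. With 1 library left out the counts ran from 0 to 17, 0 to 11 and 0 to 4. Total reads moved the median log2 fold change of all genes to 0.12, -0.10 and 0.03, and scaling on short genes to -0.06, -0.20 and -0.26. Depth did not limit the members, which had at least 30004 reads in every library, and the spread between libraries did.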
